A study of Mus musculus with 4 samples.

Results

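The genes described here encode receptors, adaptor proteins and a kinase through which B cells receive survival and costimulatory signals. They are 10 of the 34866 genes in the deposited table and were chosen by name, namely the 4 receptor genes Tnfrsf13b (TACI), Tnfrsf13c (BAFF receptor), Cd40 and Cd27, the 5 TRAF adaptor genes Traf1, Traf2, Traf3, Traf5 and Traf6, and Map3k14, which encodes the kinase NIK. Spleen B cells (B220+ IgM+) of 2 tumor-bearing mice, 1 for tumor #1 and 1 for tumor #2, were sorted into Tom+ and Tom- cells and sequenced as 4 libraries, to compare lymphoma cells that had and had not switched on the Tom reporter. Both mice carried λ-MYC +/TG, a human MYC gene under regulatory sequences of the Igλ light chain, together with a Cre knock-in allele and R26tdTom +/ki, so that Cre, once made, switched on the Tom reporter for good. Tom+ therefore stands for past and not for present Cre expression, and the Tom- cells carried the same alleles. The ages of these mice are not given in the sources used here, and none of the 4 libraries comes from a mouse without the transgene.

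BAFF keeps mature B cells alive through the BAFF receptor, whereas TACI, which binds BAFF and APRIL, restrains the size of the B cell pool and takes part in antibody responses. CD40 receives help from T cells through CD40 ligand, CD27 is the receptor for CD70, and all these receptors act through TRAF proteins. At rest TRAF3, with TRAF2 and the ubiquitin ligases cIAP1 and cIAP2 (Birc2 and Birc3), keeps NIK protein low by degradation, and receptor engagement frees NIK to activate the noncanonical NF-κB pathway, in which the Nfkb2 product is processed and RelB is activated, while TRAF6 mainly serves the canonical pathway.

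RefSeq promoter windows (GRCm38.p6) were found for 9 of the 10 genes, all but Cd40. The 250 bases before each start site were searched on both strands for the κB consensus, the motif bound by NF-κB. It was found in 1 of the 9, Traf3, where it begins 10 bases before the start site and reads GGGGATTTCC on the strand of the gene, and in 7.25% of 32851 windows of the same length. A match describes letters and does not show binding. The window of Traf3 (chr12:111166120-111166369, plus strand) is shown for its match, in capitals, and that of Traf1 (chr2:34961773-34962022, minus strand), without a match, because Traf1 had the largest ratio of TPM in tumor #2 to TPM in tumor #1.
Traf3: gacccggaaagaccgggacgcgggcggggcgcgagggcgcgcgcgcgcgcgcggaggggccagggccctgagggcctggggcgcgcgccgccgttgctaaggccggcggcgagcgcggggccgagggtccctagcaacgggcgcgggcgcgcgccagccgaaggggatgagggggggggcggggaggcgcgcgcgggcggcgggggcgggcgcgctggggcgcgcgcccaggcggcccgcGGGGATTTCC
Traf1: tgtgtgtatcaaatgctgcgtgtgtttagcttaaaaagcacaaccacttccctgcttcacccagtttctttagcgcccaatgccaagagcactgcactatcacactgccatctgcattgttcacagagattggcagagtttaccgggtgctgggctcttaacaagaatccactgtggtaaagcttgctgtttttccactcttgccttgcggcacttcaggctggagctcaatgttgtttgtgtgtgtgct

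The genes themselves are protein-coding and lie on 6 chromosomes of GRCm38. Cd40 spans positions 165055627 to 165072948 of chromosome 2, which also holds Traf1, Traf2 and Traf6, while Tnfrsf13c spans 82221743 to 82224369 of chromosome 15 and Traf3 spans 111166370 to 111267153 of chromosome 12. Exons of Cd27, Traf5 and Map3k14 share bases with other annotated genes (Mir8113, Mir3473c, 1700028N14Rik and, antisense to Traf5, Gm26879), and whether strand was used in the quantification is not given in the sources used here.

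Expression is given as TPM, a relative abundance corrected for transcript length, so that genes can be compared within a library. Read numbers are unknown, so no counting error can be attached to a value. The labelled cell type was checked against marker genes. Summed TPM of the 8 B cell markers was 2454 in Tom- and 2295 in Tom+ cells of tumor #1, and 5072 and 5948 in those of tumor #2. The 8 T cell markers summed to between 11.0 and 64.0 TPM, most of it from Cd2. Cd3e had no more than 0.0687 TPM, whereas in tumor #2 Cd3d had 7.77 TPM (Tom-) and 2.09 TPM (Tom+), and Cd8b1 and Cd3g had 2.02 and 1.35 TPM in Tom+ cells. The 9 myeloid markers summed to between 2.64 and 13.5 TPM, the 4 erythroid markers to between 0.0963 and 19.2 TPM and the 5 germinal center markers to between 0.935 and 2.50 TPM. Of the 4 NK cell markers, 3 were listed at 0 throughout and the list reached 0.592 TPM at most. The 5 plasma cell markers summed to between 30.2 and 34.7 TPM in 3 libraries and to 260 TPM in the Tom+ library of tumor #2, where Jchain alone had 209 TPM.

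Traf5, Tnfrsf13b and Tnfrsf13c were the most abundant of the 10 transcripts in every library. In what follows, the value of Tom- cells precedes that of Tom+ cells. Traf5, an adaptor that binds CD40 and CD27, had 28.5 and 32.9 TPM (tumor #1) against 53.8 and 49.5 TPM (tumor #2). For Tnfrsf13b the levels were 24.5 and 20.0 TPM (tumor #1) against 46.0 and 43.2 TPM (tumor #2). Those of Tnfrsf13c were 28.8 and 24.8 TPM (tumor #1) against 41.8 and 33.8 TPM (tumor #2). All 3 were higher in both libraries of tumor #2 than in either library of tumor #1. Traf5 exceeded Tnfrsf13b in 4 of 4 libraries, whereas Tnfrsf13b exceeded Tnfrsf13c in both libraries of tumor #2 and was below it in both libraries of tumor #1. Tnfrsf13c stood between percentiles 70.5 and 77.6 of the genes tested in each library.

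A middle group comprised Traf3, Traf6, Traf2 and Cd40. Traf3 had 8.89 and 8.67 TPM (tumor #1) against 14.3 and 10.6 TPM (tumor #2). For Traf6 the levels were 6.48 and 6.52 TPM (tumor #1) against 10.6 and 10.1 TPM (tumor #2). Traf2 had 5.29 and 5.93 TPM (tumor #1) against 9.28 and 7.26 TPM (tumor #2). These adaptors kept the order Traf3, Traf6, Traf2 in all 4 libraries. Cd40 had 3.69 and 2.30 TPM (tumor #1) against 16.3 and 12.1 TPM (tumor #2), below all 3 adaptors in tumor #1 and above all 3 in tumor #2.

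The remaining genes were scarce. Map3k14 had 1.73 and 1.16 TPM (tumor #1) against 3.03 and 1.86 TPM (tumor #2), between percentiles 11.0 and 17.9 of the genes tested. Its RNA does not report the amount of NIK protein, which is set mainly by degradation. Traf1, an adaptor without the RING domain of the other TRAF proteins and a known target of NF-κB, had 0.0397 and 0.127 TPM (tumor #1) against 0.902 and 2.76 TPM (tumor #2). Jchain was also highest in the Tom+ library of tumor #2, and the part of plasma cells in the Traf1 value was not tested. Cd27 had 0.0960 and 0.207 TPM (tumor #1), then 1.03 TPM in the Tom- library of tumor #2, and it was listed at 0 in the Tom+ library. In that Tom- library Cd3d and the neutrophil gene S100a9, at 2.41 TPM, were also above their levels elsewhere, but Cd3g, Cd8a, Cd8b1 and Cd28 were highest in the Tom+ library, where Cd27 was listed at 0. The T cell markers of the respective libraries summed to 64.0 and 61.0 TPM, of which Cd2 had 55.7 and 54.9 TPM. The myeloid markers summed to 13.5 and 7.15 TPM, of which Cd68 had 4.58 and 6.41 TPM. Itgam had 1.78 and 0.208 TPM and Lyz2 had 1.41 and 0.310 TPM. S100a8 and S100a9 were above 0 in the Tom- library and listed at 0 in the Tom+ library. Of the myeloid markers, only Cd68 and Adgre1 (0.110 and 0.115 TPM) were higher in the Tom+ library. The part of other cells in the Cd27 value was not tested. Traf1 and Cd27 reached 1 TPM in only 1 library each and were not tested, since the test was limited to genes that reached 1 TPM in 2 or more libraries.

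**Figure D1:**
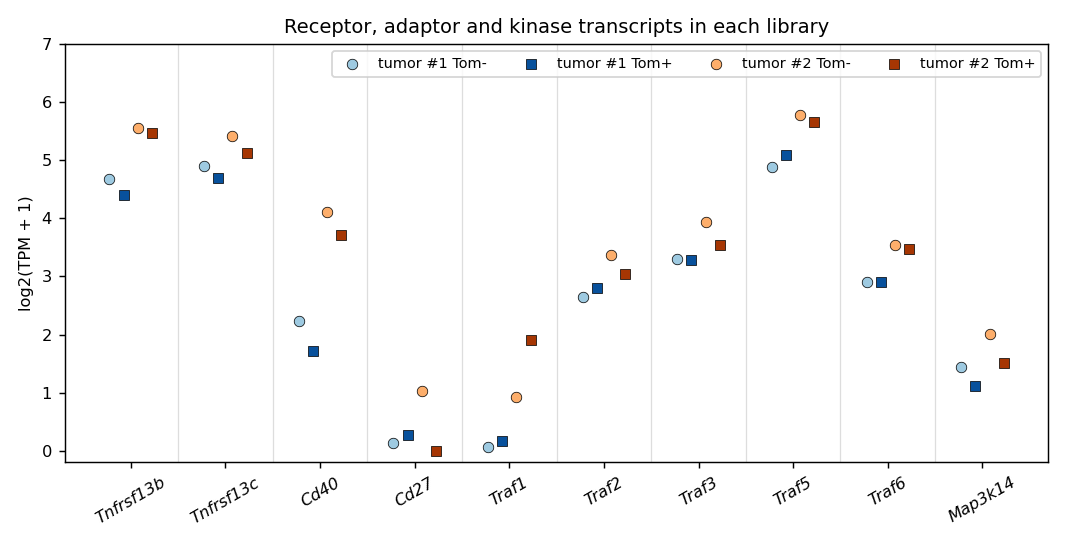
Level of the 10 transcripts, as log2(TPM + 1) on the vertical axis, with 1 point per library (circles for Tom- and squares for Tom+ cells, blue for tumor #1 and orange to red for tumor #2). Both points of tumor #2 lie above both of tumor #1 for every gene except Cd27, and the range is widest for Cd40 (2.39).

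None of the 8 genes that could be tested passed the test between Tom+ and Tom- cells. The sorted fractions of each tumor were compared by limma's moderated test on log2(TPM + 1), with the tumor as a block and Benjamini-Hochberg adjustment over the 11339 genes tested. Of the 10 members 8 were tested, and 0 had an adjusted p-value below 0.05, as did 0% of all genes tested. Unadjusted p-values below 0.05 were seen for 0 members and for 4.67% of all genes. With 2 mice, 1 residual degree of freedom remained, beside a prior of 2.21 degrees of freedom drawn from the other genes. The p-values thus rest on the spread between these mice only, and in part on that of other genes. An exact permutation test within pairs could not go below 0.5.

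Among the receptors, Cd40 had the largest difference, a log2 fold change of -0.45 in Tom+ cells (SE 0.20, 95% interval -1.05 to 0.15, adjusted p = 0.936 from limma), with -0.50 in tumor #1 and -0.40 in tumor #2. Tnfrsf13c had -0.25 (SE 0.15, 95% interval -0.71 to 0.20, adjusted p = 0.936), with -0.21 and -0.30 in the respective tumors. Tnfrsf13b had -0.18 (SE 0.16, 95% interval -0.66 to 0.30, adjusted p = 0.936), and its value in tumor #2, -0.086, turned to 0.013 when TPM were rescaled to nuclear protein-coding genes. The kinase gene Map3k14 had -0.42 (SE 0.23, 95% interval -1.13 to 0.30, adjusted p = 0.936), from -0.34 and -0.49. Each interval includes 0, and each also includes differences larger than the one observed.

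For the tested adaptors except Traf6, the values of the tumors were less alike than for the tested receptors. Traf3 had -0.22 (SE 0.21, 95% interval -0.86 to 0.42, adjusted p = 0.936 from limma), from -0.032 in tumor #1 and -0.41 in tumor #2. Traf2 had 0.14 and -0.31 (mean -0.088, SE 0.23, adjusted p = 0.977), and Traf5 had 0.20 and -0.12 (mean 0.041, SE 0.17, adjusted p = 0.989). Traf6 had 0.0088 and -0.064 (mean -0.028, SE 0.19, adjusted p = 0.995). Traf2, Traf5 and Traf6 thus had opposite signs in the tumors, as did the untested Cd27, with 0.14 and -1.02, while the untested Traf1 had 0.12 and 0.98.

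Lower values in Tom+ cells of both tumors were found for 5 of the 8 tested members (62.5%) and for 29.5% of all genes tested, with medians of the log2 fold change of -0.20 and -0.033. After rescaling to nuclear protein-coding genes, where Traf1 was tested as well, the count was 4, beside 23.5% of all genes then tested. The 8 B cell markers had a median of -0.24, with 6 of them lower in both tumors, and their part in the values of the members was not tested. In such bulk samples, fewer cells of a type and less RNA per cell cannot be told apart.

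**Figure D2:**
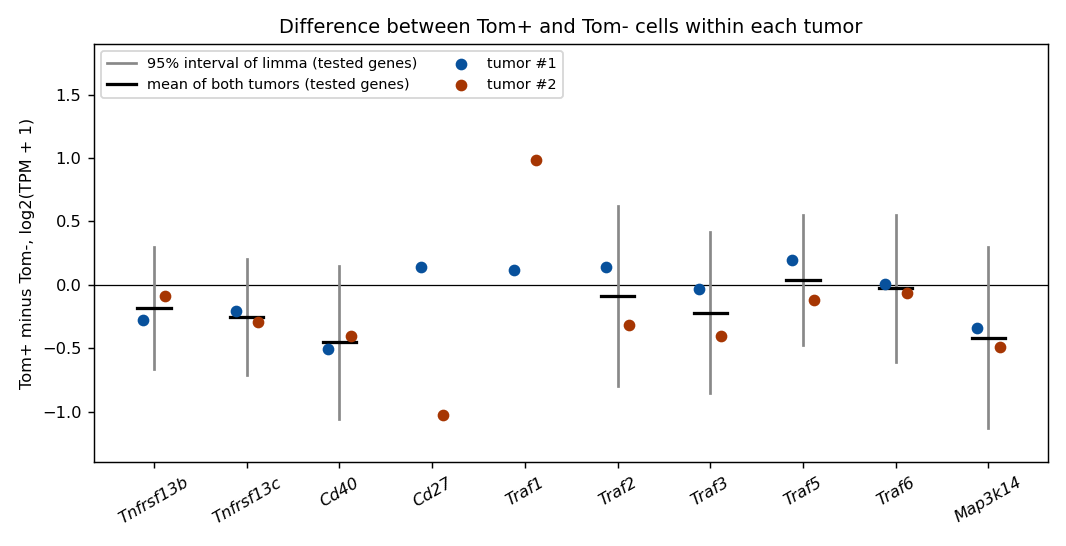
Tom+ minus Tom- cells in log2(TPM + 1) for each gene (vertical axis), with 1 point per tumor and, for the 8 genes tested, a black bar for the mean of both tumors and a gray line for limma's 95% interval. All 8 intervals cross 0, and Tnfrsf13b, Tnfrsf13c, Cd40, Traf3 and Map3k14 have both points below 0.

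Between the 2 tumors, Cd40 had the largest difference of the 10 genes in log2(TPM + 1) in both sorted fractions, with higher levels in tumor #2. Because each tumor is 1 mouse, this difference has no replicate check and was not tested. Over all genes tested, tumor #2 minus tumor #1 in log2(TPM + 1) had a median of 0.23 in Tom- and 0.19 in Tom+ cells, which trimmed-mean scaling moved to 0 and -0.0034 and quantile normalization to -0.066 and -0.071, so that values of single genes are to be read against it. Mitochondrial genes took 6.61% and 8.67% of TPM in tumor #1 against 14.4% and 15.6% in tumor #2, and pseudogenes 31.3% and 30.3% against 25.4% and 23.4%. Immunoglobulin genes took 6.28% and 5.70% in tumor #1 against 5.35% and 9.76% in tumor #2. With all these genes left out and TPM rescaled to nuclear protein-coding genes, the medians were 0.30 and 0.33.

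Of the untested members, Traf1 was higher in both fractions of tumor #2 and Cd27 in Tom- cells only, both from below 1 TPM in tumor #1. All 8 tested members were higher in both fractions, as were 49.6% of all genes tested, and their median difference was 0.67 in Tom- and 0.50 in Tom+ cells. With quantile normalization this held for 5 of the 8 and for 33.9% of all genes, since Traf2, Traf3 and Map3k14 were then lower in Tom+ cells of tumor #2 (-0.12, -0.073 and -0.030). At least 2-fold higher in both fractions was 1 of the 8 (12.5%), Cd40, beside 11.8% of all genes tested, so the members as a group were not set apart by this limit.

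Cd40 was 4.43-fold higher in Tom- and 5.26-fold higher in Tom+ cells of tumor #2, or 1.89 and 1.99 in log2(TPM + 1). Trimmed-mean scaling gave 1.66 and 1.81 for these differences, quantile normalization gave 1.51 and 1.66, and they were 2.03 and 2.27 after rescaling to nuclear protein-coding genes. The B cell markers had a median difference of 1.23 and 1.34, in which Ptprc (CD45) had 0.63 and 0.49 and Ms4a1 (CD20) had 2.96 and 3.28. Cd40 thus lay between these markers. Tnfrsf13b had 0.88 and 1.07 and Tnfrsf13c had 0.52 and 0.43. Among the adaptors, Traf5 had 0.89 and 0.58, Traf6 0.63 and 0.56, Traf2 0.71 and 0.25 and Traf3 0.63 and 0.26, and Map3k14 had 0.56 and 0.41. Traf1 was 22.7-fold and 21.8-fold higher in TPM, but since it had no more than 0.127 TPM in tumor #1 its log2(TPM + 1) differed by 0.87 and 1.74.

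**Figure D3:**
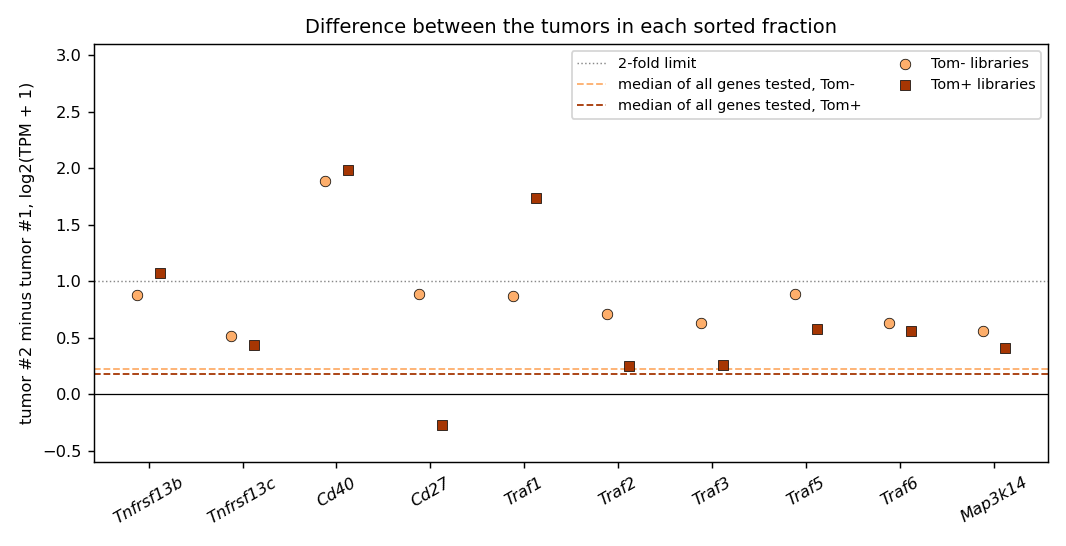
Tumor #2 minus tumor #1 in log2(TPM + 1) for each gene (vertical axis), in Tom- (circles) and Tom+ libraries (squares), with dashed lines for the medians of all genes tested (0.23 and 0.19) and a dotted line for the 2-fold limit. Cd40 has both points above the limit (1.89 and 1.99), and Cd27 has the only point below 0.

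The genes whose pattern over the 4 libraries was most like that of Cd40, by Euclidean distance between log2(TPM + 1) values centered on each gene's mean, were Gpr65, Abca2 and Srgn. Gpr65, a proton-sensing receptor, had 1.04 and 0.336 TPM (tumor #1) against 6.56 and 4.55 TPM (tumor #2), at a distance of 0.0878. Abca2, a lipid transporter, had 2.78 and 1.93 TPM (tumor #1) against 13.3 and 9.39 TPM (tumor #2), at a distance of 0.125. Srgn, which encodes the proteoglycan serglycin, had 42.7 and 28.9 TPM (tumor #1) against 141 and 112 TPM (tumor #2), at a distance of 0.143. Their likeness to Cd40 in direction follows from this choice.

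The ligands were scarce or listed at 0. Cd40lg and Cd70 were listed at 0 in all 4 libraries, and Tnfsf13 (APRIL) had 0.108 TPM in Tom+ cells of tumor #1 and was listed at 0 elsewhere. Tnfsf13b (BAFF) had 0.219 and 0.203 TPM (tumor #1) against 0.142 and 0.111 TPM (tumor #2). Of 14 other TNF receptor genes 4 were tested, and 0 passed the test in either direction. Tnfrsf17 (BCMA), the BAFF and APRIL receptor of plasma cells, had 0.778 and 0.360 TPM (tumor #1) against 0 and 0.390 TPM (tumor #2). The largest Tom+ differences among these receptors were those of Tnfrsf4 (OX40), with 1.02 and 2.15 TPM (tumor #1) against 2.84 and 4.73 TPM (tumor #2), and of Tnfrsf18 (GITR), with 0.227 and 0 TPM against 2.21 and 4.79 TPM. Their log2 fold changes were 0.61 (SE 0.22, adjusted p = 0.936 from limma) and 0.28 (SE 0.40, adjusted p = 0.952), and Tnfrsf18 had opposite signs in the tumors.

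All 15 genes for other TRAF proteins and regulators of TRAF signaling were tested, and 0 passed in either direction. Tank, which binds TRAF proteins and dampens their signaling, had the only unadjusted p-value below 0.05 (0.0134) in the 5 pathway lists, which together hold 58 genes. It had 19.7 and 11.1 TPM (tumor #1) against 32.6 and 14.1 TPM (tumor #2), or -0.96 on the log2 scale (SE 0.19, 95% interval -1.56 to -0.37, adjusted p = 0.936 from limma). Both Tom- libraries were thus above both Tom+ libraries, but the difference did not pass the adjustment. Traip, a TRAF-interacting ubiquitin ligase, had 47.5 and 26.0 TPM (tumor #1) against 39.8 and 32.3 TPM (tumor #2), or -0.57 (SE 0.21, adjusted p = 0.936). Among the 11 kinases and NF-κB factors below the adaptors 0 passed. The largest differences there were those of Map3k7 (TAK1), with 25.2 and 19.3 TPM (tumor #1) against 42.6 and 33.9 TPM (tumor #2), and of its partner Tab2, with 24.0 and 20.8 TPM against 33.2 and 28.4 TPM. Their log2 fold changes were -0.34 (SE 0.15) and -0.20 (SE 0.15), both with an adjusted p-value of 0.936 from limma.

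Of 19 genes known to respond to CD40 or BAFF, 12 were tested, and 0 passed the test between Tom+ and Tom- cells. The largest differences were those of Nfkbia, which encodes the NF-κB inhibitor, with 5.73 and 7.20 TPM (tumor #1) against 19.4 and 29.8 TPM (tumor #2), and of Bcl2l1, which encodes the survival factor Bcl-xL, with 1.70 and 0.970 TPM against 2.61 and 7.09 TPM. On the log2 scale Nfkbia differed by 0.44 (SE 0.19, adjusted p = 0.936 from limma) and Bcl2l1 by 0.35 (SE 0.50, adjusted p = 0.952), the latter with opposite signs in the tumors.

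Between the tumors, 4 of the 6 genes of this list with a mean of 5 TPM or more (66.7%), Cd86, Mcl1, Nfkbia and Birc3, were at least 2-fold higher in both fractions of tumor #2, beside 9.79% of all genes with such a mean and 4 of the 8 B cell markers. The mean covers all 4 libraries, and Cd86 had only 5.19 and 3.36 TPM in tumor #1. Pim2, also among the 6, had 4.32 and 4.74 TPM in tumor #1. The places of Cd86 and Pim2 among the 6 thus leaned on their levels in tumor #2, and their direction is no result. The list was also written with earlier results of these data known, so the share of 66.7% is a description only. Of the scarcer genes, Cd80, Nfkb2, Relb and Tnfaip3 also passed this limit. None of these 4 reached 1 TPM in both libraries of tumor #1, so that they were tested only because of their levels in tumor #2, and their direction is no result.

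Birc3 had 25.4 and 22.8 TPM (tumor #1) against 149 and 156 TPM (tumor #2), the widest gap of these genes in log2(TPM + 1), of 2.51 and 2.72. Nfkb2 had 1.23 and 0.968 TPM (tumor #1) against 3.73 and 3.90 TPM (tumor #2), and its partner Relb had 1.23 and 0.835 TPM against 4.38 and 5.02 TPM. Tnfaip3 (A20), which ends NF-κB signaling, had 0.0770 and 0.103 TPM (tumor #1) against 3.93 and 3.32 TPM (tumor #2). For Nfkb2, Relb and Tnfaip3 these values are a description, for the reason given. The costimulatory ligand gene Cd86 had 5.19 and 3.36 TPM (tumor #1) against 17.1 and 19.8 TPM (tumor #2). Fcer2a (CD23), by contrast, had at most 0.862 TPM, and the chemokine gene Ccl17 was listed at 0 throughout.

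**Figure D4:**
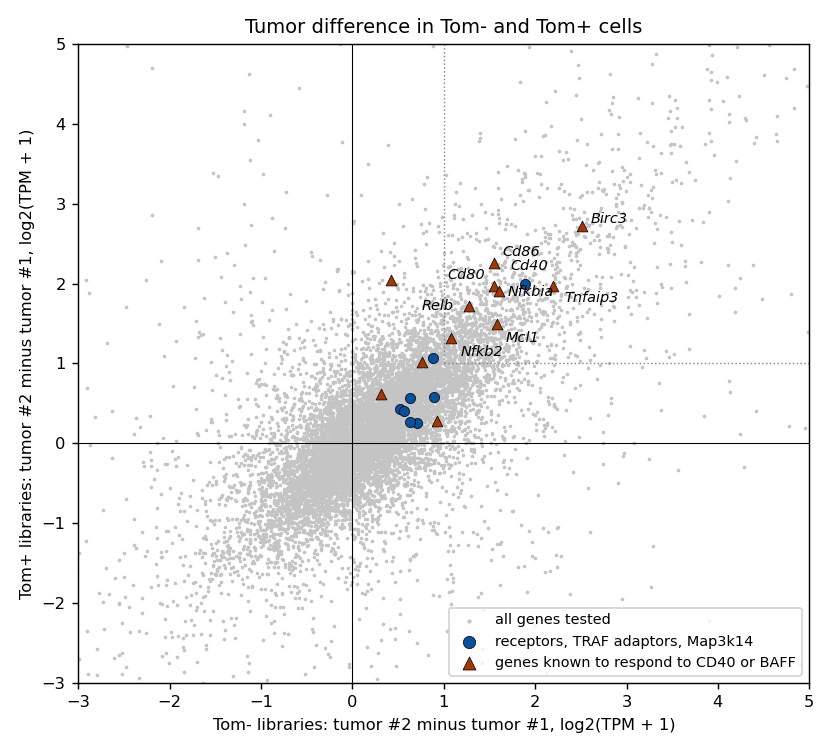
Tumor #2 minus tumor #1 in log2(TPM + 1) in Tom- (horizontal axis) and Tom+ libraries (vertical axis), with 1 point per gene: gray for all genes tested (215 lie outside the axes), blue circles for the 8 tested members and triangles for the 12 tested genes known to respond to CD40 or BAFF. Beyond both dotted 2-fold limits lie Cd40 and 8 triangles, beside 11.8% of all genes tested. Of these triangles, Cd80, Nfkb2, Relb and Tnfaip3 were tested only because of their levels in tumor #2. The circles other than Cd40 lie between 0.52 and 0.89 horizontally and between 0.25 and 1.07 vertically.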

How the data were processed

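B220+ IgM+ Tom+ and Tom- splenocytes of 2 mice were sequenced by the authors, who trimmed single reads with Cutadapt, quantified them on the GRCm38 transcriptome with Salmon (1.9 per the submitters' processing notes) and deposited TPM per gene. How transcripts were summed to genes is not given in the sources used here. Depth is unknown, and the number of tumors limits precision. GENCODE M21 named 34652 of 34866 identifiers.

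Values were taken as log2(TPM + 1), which understates differences of low genes, for genes that reached 1 TPM in 2 or more libraries. Tom+ and Tom- cells were tested with limma 3.58.1 (R 4.3.3), the tumor as a block and a trended prior of 2.21 degrees of freedom. The block rests on both libraries of a tumor coming from 1 mouse, and tumor differences in Tom- and Tom+ cells correlated across genes (Pearson's r = 0.626, Spearman's rho = 0.669), which are not independent. The fit's estimates of fold change were checked on data simulated from the fit itself, with added changes larger than those of the members. This check did not test the p-values or intervals. The edgeR test used by the authors needs counts and was not run.

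Members and lists were chosen with earlier results of these data known. Named were the 10 members, the ligands, Tnfrsf17, the 2 tested genes of each other pathway list with the largest Tom+ difference and any past the threshold, and the 3 genes nearest to the member of widest range. Birc3, Nfkb2, Relb, Tnfaip3, Cd80, Cd86, Mcl1, Pim2, Fcer2a, Ccl17 and the single markers were named after their values were seen. Alternatives were no block, no filter or a mean of 5 TPM or more, pseudocounts of 0.1 and 0.5, trimmed-mean scaling, quantile normalization, rescaling to nuclear protein-coding genes, no variance trend, a robust prior and either tumor alone. Some items are not reported here.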

Additional observations from a re-analysis of the deposited data

Results flagged for a closer look

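For 4 members the difference between Tom+ and Tom- cells had opposite signs in the tumors, with 1 pair of libraries per tumor, and the difference between the tumors was not tested. As Tom+ minus Tom- in tumor #2 minus the same in tumor #1, in log2(TPM + 1), it was -1.16 for Cd27, -0.45 for Traf2, -0.32 for Traf5 and -0.073 for Traf6. The value of Cd27 rests on levels near or below 1 TPM. For comparison, both pairs of libraries gave a negative sign for 3349 and a positive sign for 2452 of the 11339 genes tested. Among the 8 tested members, these counts were 5 and 0. The remaining genes had no shared sign, so its absence in Traf2, Traf5 and Traf6 does not set them apart.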

How the results depend on the processing

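Without the replicate block, 0 members and 0 genes of the pathway lists had an adjusted p-value below 0.05 from limma, as in the paired fit and under the other alternatives with a test. Since 0 of all genes passed in each of these fits, with a lowest adjusted p-value between 0.829 and 1.00, these counts say nothing about stability. Over all genes, 530 had an unadjusted p-value below 0.05 with the replicate block and 140 without it, and Tank was then no longer among them. Leaving out either tumor leaves no residual degree of freedom, and in 1 tumor alone the log2 fold change had the other sign in 3 of 16 values, 1 each for Traf2, Traf5 and Traf6. Under the 5 alternatives that change a gene's values (both pseudocounts, trimmed-mean scaling, quantile normalization and rescaling to nuclear protein-coding genes), 1 of 40 values turned, that of Traf6, to 0.025 after rescaling. In that rescaling 2 members in place of 1 were at least 2-fold higher in both fractions of tumor #2, beside 14.0% of all genes then tested. The added member, Traf1, differed by 1.32 and 2.40 in place of 0.87 and 1.74. Traf1 was then tested only because of its levels in tumor #2, so its direction is no result. Some counts had alternatives chosen after seeing the data. Quantile normalization left 5 of 8 members higher in both fractions of tumor #2, beside 33.9% of all genes. It left 5 in place of 8 response genes at least 2-fold higher, beside 7.05% in place of 11.8% of all genes. With a mean of 5 TPM required, the latter were 4 of the 6 then tested in place of 8 of 12, beside 9.79% of all genes. Among the 8 were Cd80, Nfkb2, Relb and Tnfaip3, which were tested only because of their levels in tumor #2. Among the 6, the places of Cd86 and Pim2 leaned on their levels in tumor #2, so the count of 4 is not free of this selection. Values near or below 1 TPM, as for Traf1, Cd27 and Map3k14, have no known counting error.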
